A study of Mus musculus with 4 samples.

Results

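The olfactory receptor (Olfr) gene regions of the mouse autosomes were described in whole-genome bisulfite sequencing (WGBS) of 4 embryonic brains. A region was the body of a gene whose symbol begins with Olfr, plus 2 kb on each side, with overlapping stretches merged. The annotation (GENCODE vM21, build mm10) holds 1399 such genes on 18 autosomes, which gave 1155 regions. Of these, 1150 held at least 3 CpGs with 5 or more reads in every library and were kept. The other 5 were not analysed further. They were set beside 234791 windows of 10 kb elsewhere on the autosomes, so that 235941 regions and windows were tested in all.

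All embryos were males of the 129S6.cg Tet1 tm1Koh strain, from Tet1 HET dams, and were taken at E11.5. The dams ate diets with 30 ppm (excess) or 3 ppm (control) folic acid (FA), all with succinylsulfathiazole, which suppresses folate-making gut bacteria, for at least 4 weeks before mating. The 4 groups were Tet1 KO at 30 ppm, WT at 30 ppm, KO at 3 ppm and WT at 3 ppm, with 1 library of 1 embryo each. There were no replicates, so no value has an SD between samples, and each test between libraries compares those libraries and not the conditions. The knockout carries a cassette at the first coding ATG of Tet1, on an allele of C57BL/6 origin bred into 129S6. By their embryo numbers, which the study also lists for reduced-representation libraries, both KO brains came from embryos with a neural tube defect and neither WT brain did, and no pair shared a litter number, so genotype, phenotype and litter cannot be told apart. WGBS holds no measure of Tet1 RNA, so the genotypes rest on the labels. Each library covered 17175018 to 18448780 autosomal CpGs at a mean of 13.2 to 21.2 reads, and the tested CpGs of the Olfr regions at 15.2, 15.7, 24.8 and 18.4 reads. Values for the 4 libraries are given throughout in the order KO 30 ppm, WT 30 ppm, KO 3 ppm and WT 3 ppm.

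Olfactory receptors are G protein-coupled receptors that bind odorants in the cilia of olfactory sensory neurons. They form the largest gene family of the mouse, in clusters on most chromosomes, and each mature neuron expresses 1 allele of 1 receptor gene. In other tissues the family is largely silent, and its clusters lie in late-replicating heterochromatin. A receptor's coding sequence is usually held in a lone exon, and its promoter is poor in CpGs and rich in A and T. Class I receptors, related to those of fish, sit together on chromosome 7 around the beta-globin genes, and class II receptors make up the other clusters. The Tet1 protein oxidises 5-methylcytosine, with a CXXC domain that favours CpG-rich DNA.

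Few CpGs stood where these genes start. Of the 1399 genes, 612 (43.7%) had no CpG in the 250 bases before the annotated start, and the median was 1 CpG. Among 20807 autosomal protein-coding genes, 7.39% had none and the median was 8. The sequences of 3 receptors much used in studies of receptor choice show this, read from the mm10 reference on the strand of the gene, with each CpG in capitals.
Olfr17, chr7:107092970-107093219, + strand: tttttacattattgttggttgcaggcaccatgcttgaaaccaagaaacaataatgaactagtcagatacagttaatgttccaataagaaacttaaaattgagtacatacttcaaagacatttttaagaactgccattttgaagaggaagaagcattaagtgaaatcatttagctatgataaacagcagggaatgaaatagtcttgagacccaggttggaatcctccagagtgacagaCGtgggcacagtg
Olfr151, chr9:37731105-37731354, - strand: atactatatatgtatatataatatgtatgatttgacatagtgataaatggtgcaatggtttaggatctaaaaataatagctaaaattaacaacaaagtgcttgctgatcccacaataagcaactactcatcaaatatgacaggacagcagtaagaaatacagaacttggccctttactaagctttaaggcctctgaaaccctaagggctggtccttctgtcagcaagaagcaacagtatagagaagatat
Olfr73, chr2:88037700-88037949, - strand: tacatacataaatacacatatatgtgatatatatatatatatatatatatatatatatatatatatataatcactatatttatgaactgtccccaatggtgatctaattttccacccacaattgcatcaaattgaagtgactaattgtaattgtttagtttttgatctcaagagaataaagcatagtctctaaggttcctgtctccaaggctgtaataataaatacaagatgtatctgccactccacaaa

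Olfr17 had 1 CpG in this stretch, while Olfr151 and Olfr73 had none, so that no methylation value exists there. The CpG of Olfr17 was at 70.6, 55.0, 57.1 and 68.2%, from 80 reads in all. Letters bound by homeodomain proteins such as Lhx2, a regulator of receptor genes, were common in these stretches. TAATTA stood on either strand in 22.5% of the 1128 protein-coding Olfr genes and in 4.90% of all protein-coding genes, and TAATGA in 33.1% and 8.69%. CCCNNGGG, the core of the site of Ebf proteins, stood in 13.6% and 14.0%. Matches of TAATTA and TAATGA can overlap, and a match is no more than a run of letters.

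Olfr regions were methylated at a high and even level in all 4 brains. The median over the 1150 regions was 84.5, 83.9, 83.5 and 84.8%, with an SD over regions of 6.38, 6.53, 6.19 and 6.36 points. From the 10th to the 90th percentile, regions ran from 74.7 to 89.0% in KO 30 ppm and from 75.0 to 89.5% in WT 3 ppm. Summed over all reads, the levels were 83.6, 82.9, 82.7 and 83.8%, and the widest 95% Wilson interval was 83.5 to 83.6%, in KO 30 ppm. These intervals cover counting error alone, and they take a read as independent at each CpG it covers. Pearson's r of the levels across regions was 0.885 to 0.924 for the 6 pairs of libraries, below the 0.952 to 0.972 of windows elsewhere. Olfr regions held fewer reads, with a median of 517 to 844 against 849 to 1385. They also varied less, as windows had an SD of 8.74 to 9.55 points, and each of these can lower r by itself. Regions share libraries and clusters, so these are descriptions. By these sums KO was above WT in the 30 ppm pair and below it in the 3 ppm pair.

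CpGs were sparse in the regions, with a median of 4.07 per kb against 7.5 in the windows, and 953 regions (82.9%) held under 6 per kb against 34.7% of windows. Each region was therefore set against the median of windows in the same bin of CpG density, 1 CpG per kb wide. The median region differed from windows of like density by -1.62, -1.60, -1.69 and -1.64 points, and 66.4, 64.4, 67.3 and 64.7% of regions lay below. Vomeronasal receptor genes (Vmn1r and Vmn2r), the pheromone receptors that also form large silent clusters, differed by -5.43, -4.97, -5.49 and -5.23 points over 455 regions made the same way. The Olfr gap was thus close to equal in KO and WT and in both diets, and smaller than that of the vomeronasal regions in each library. The order of the gaps was not tested, since neighbouring regions are not replicates.

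**Figure D1:**
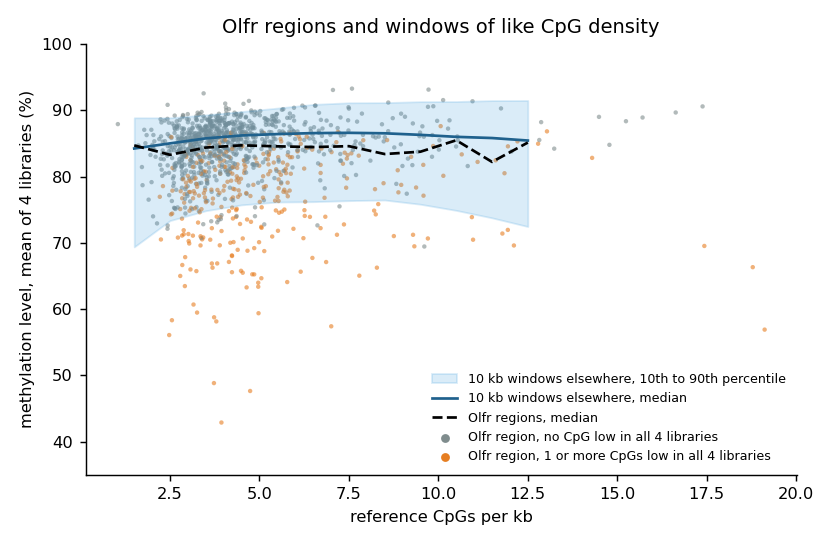
Methylation level (mean of the 4 libraries, in percent) of each of the 1150 Olfr regions against its number of reference CpGs per kb. The dashed line is the median of Olfr regions and the blue line and band are the median and the 10th to 90th percentile of 10 kb windows elsewhere, for bins with at least 5 Olfr regions. Of the 1138 regions in these bins 987 lie inside the band and 55 over 5 points below it. Of those 55 all but Olfr1127-ps1 carry CpGs outside islands at 10% or less in all 4 libraries (orange). Such CpGs by themselves lower the level of a region.

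Apart from the region of Olfr17 and Olfr715b, the receptors near the median or with a known role named here lay within a few points across libraries. Olfr684 on chromosome 7 (chr7:105152692-105165653), near the median, was at 81.7, 84.8, 81.6 and 83.8% over 52 CpGs. Olfr9 on chromosome 10, likewise near the median, was at 84.7, 83.9, 84.4 and 84.9% over 29 CpGs, and Olfr554 on chromosome 7 at 87.2, 84.7, 83.8 and 84.1% over 39. None of the 3 was called different in any comparison, by the test given further on. Olfr2, a receptor for octanal and related aldehydes, was at 88.0, 85.3, 83.7 and 86.5%. Olfr73, a receptor for eugenol, was at 87.6, 88.1, 86.3 and 87.4%, and no library stood apart from the others. Olfr160 and its neighbour Olfr151, a pair of near-identical receptors on chromosome 9, were at 86.7, 85.5, 83.2 and 85.2% and at 87.7, 86.2, 85.8 and 86.6%. Olfr16, which is also found in sperm, was at 84.4, 83.8, 81.9 and 84.8%. The class I region of Olfr543, Olfr544 and Olfr545 was at 84.8, 85.0, 86.0 and 82.6%, and the region of Olfr78, a receptor of the carotid body, and Olfr560 at 84.8, 84.8, 85.9 and 85.0%. Lower than these was the region of Olfr17 and Olfr715b, at 71.2, 66.6, 63.5 and 63.7%. It holds 6 CpGs at 10% or less in all 4 libraries, and without these stood at 81.3, 80.6, 77.7 and 79.8%. None of these receptors was called different in any of the 4 comparisons. For the region of Olfr17 and Olfr715b, KO at 30 ppm was 7.75 points above KO at 3 ppm. This difference was called, at 9.40 points, once CpGs with 3 reads were let in.

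The letters around a CpG went with its level. CpGs flanked by A or T on both sides (WCGW, where W is A or T) with no other CpG within 35 bp lose methylation in many dividing tissues. They made up 26.1% of the tested CpGs of Olfr regions and 16.6% elsewhere, and were the least methylated group, at 78.1, 77.4, 77.0 and 78.7% against 81.7, 80.3, 80.7 and 81.2% elsewhere. Olfr CpGs with 2 or more others within 35 bp ran the other way. Their mean over the libraries was 86.3% in the WCGW context, 88.5% between G or C on both sides and 88.8% in the rest, against 82.3, 81.2 and 82.9% elsewhere. Weighting CpGs elsewhere to the mix of contexts of the Olfr regions left Olfr minus elsewhere at -0.32, 0.64, -0.37 and 0.78 points, below 0 in both KO and above 0 in both WT. With the always-unmethylated CpGs left out, these values were -0.79, 0.18, -0.84 and 0.32 points. In these levels dense stretches of Olfr regions were more methylated than dense stretches elsewhere, and lone WCGW CpGs less.

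Along the gene the level changed little. Gene bodies were at 83.5, 83.0, 82.8 and 83.8%, the 2 kb upstream at 83.5, 82.6, 82.6 and 83.5% and the 2 kb downstream at 83.8, 83.0, 82.7 and 83.9%. The coding sequence was higher, at 86.6, 86.2, 86.0 and 86.8%, and was denser in CpGs, with 8.78 per kb against 4.88 over whole gene bodies. Within 250 bp of the start the level was 81.7, 80.8, 81.0 and 81.6%, and 237 starts (16.9%) had no CpG there at all. In the profile by 500 bp the shallow dip ran from 500 bp before the start to 2 kb after it. Among 3987 other protein-coding genes with under 12 CpGs per kb at the start, the level within 250 bp was 80.1, 76.8, 79.4 and 77.3%. These genes had KO minus WT values of 3.29 points (30 ppm) and 2.09 points (3 ppm), whereas Olfr starts had values of 0.90 and -0.67 points. The 2 sets were not matched in CpG density, with 8.80 CpGs per kb at these starts and 4.2 at Olfr starts. This difference between Olfr and other starts was not tested, and each group holds 1 library.

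**Figure D2:**
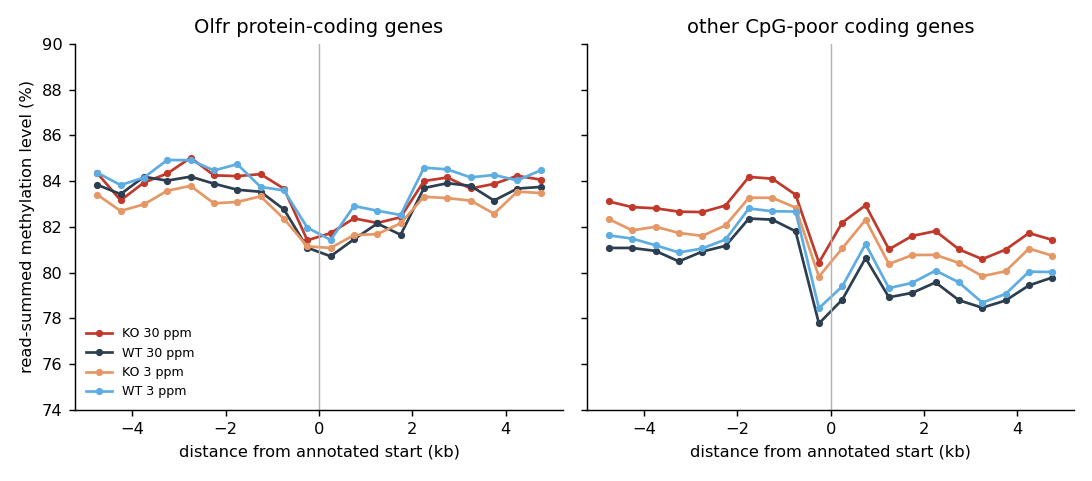
Read-summed methylation level (percent) in bins of 500 bp by distance from the annotated start, for protein-coding Olfr genes (left) and other CpG-poor protein-coding genes (right), with 1 line for each library; the vertical axis does not start at 0. The Olfr lines of KO and WT cross and dip by a few points at the start, while at other CpG-poor genes both KO lines lie above both WT lines.

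The lowest regions held CpGs with almost no methylated reads. Olfr611, a class I receptor on chromosome 7 (chr7:103514465-103522846), had the lowest mean over the 4 libraries, and was at 38.6% (95% Wilson interval 31.5 to 46.1), 43.7% (35.8 to 51.9), 42.7% (36.3 to 49.3) and 46.7% (38.9 to 54.6). The intervals of the 4 libraries overlapped, and the region holds only 13 tested CpGs. Of these, 4 had 0 methylated reads among 252, and the other 9 stood at 66.0, 66.7, 69.4 and 70.0%. These 9 still lay below the medians of windows of like CpG density, which were 85.8, 85.5, 84.9 and 86.3%. The 4 CpGs thus make up only a part of the low value. The reference around the 4 CpGs is printed here, read on the + strand of mm10 with CpGs in capitals. The CpG low in all 4 libraries is the first in each line.
Olfr611, chr7:103516313-103516354, + strand: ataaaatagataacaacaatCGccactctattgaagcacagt
Olfr611, chr7:103519112-103519153, + strand: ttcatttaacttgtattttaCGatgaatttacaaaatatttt
Olfr611, chr7:103519655-103519696, + strand: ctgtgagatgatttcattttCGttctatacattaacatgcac
Olfr611, chr7:103522113-103522154, + strand: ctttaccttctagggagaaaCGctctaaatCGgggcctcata

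The first and the last lie outside the annotated gene and the rest in its intron, and the last stretch holds a further CpG that was not low. The embryos are 129S6 and the reference is C57BL/6, so a C-to-T difference between the strains would read as an unmethylated CpG. Its part in these values was not tested. Olfr612, next to it, was at 50.8, 47.2, 46.5 and 46.1%, with 3 such CpGs of 10, and the others at 78.0, 67.4, 73.1 and 70.7%. Olfr251 on chromosome 9 was at 50.0, 49.6, 49.8 and 45.9%, and its CpGs outside the 3 low ones at 87.7, 78.7, 84.4 and 87.1%. Olfr292, Olfr320, Olfr243 and Olfr1306 had means over the libraries of 58.1, 57.4, 56.1 and 58.3%, with 7, 8, 2 and 4 low CpGs, and of 87.2, 81.4, 71.3 and 80.01% without them.

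Over all Olfr regions, 1069 tested CpGs outside CpG islands were at 10% or less in all 4 libraries. That is 220 in 10000, fewer than the 312 in 10000 elsewhere. The isolated ones, with well methylated neighbours on both sides, numbered 137 in 10000 against 131 elsewhere. At least 1 such low CpG lay in 318 regions, whose median was 78.1, 78.0, 77.6 and 79.0%, and the other 832 regions stood at 85.7, 85.3, 84.8 and 86.2%. Of the 11 regions with a mean under 60%, 0 were under it when these CpGs were left out, and of the 51 under 70%, 5 remained under that level. These CpGs were picked by their levels in these libraries, so the regions that hold them are lower by that choice. Leaving them out can only raise a region, and the like counts were not made for windows elsewhere. The median gap to windows of like density, with low CpGs left out of both, was -1.88, -1.85, -2.0 and -1.91 points. No Olfr CpG was at 80% or more in both KO and 10% or less in both WT, or the reverse, but such CpGs were rare elsewhere too, at 0.433 in 10000 for the first kind and 1 CpG in all for the second.

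Olfr750 on chromosome 14 (chr14:51064301-51076435) held a methylation-free CpG island beside 23 CpGs low in all 4 libraries. The region was at 54.8, 56.0, 59.0 and 57.8% over 193 CpGs. Its island (chr14:51064819-51065542), in which no gene is annotated, held 52 tested CpGs at 0.78, 1.19, 0.70 and 1.33%. Outside the island the region was at 70.1, 68.9, 75.2 and 71.0%, and the 118 CpGs left once the 23 low ones were also set aside were at 84.1, 83.5, 86.9 and 83.9%. The most CpG-dense 240 bases of the island are given on the + strand of mm10, with CpGs in capitals.
Olfr750, chr14:51064875-51065114, + strand: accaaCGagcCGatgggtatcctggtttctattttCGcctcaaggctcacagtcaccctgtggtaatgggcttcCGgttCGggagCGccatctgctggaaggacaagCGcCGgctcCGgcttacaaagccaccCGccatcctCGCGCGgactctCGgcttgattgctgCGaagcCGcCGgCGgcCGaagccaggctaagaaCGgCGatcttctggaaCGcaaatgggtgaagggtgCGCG

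In this stretch 9 of 851 readings were methylated over the 4 libraries, with a read counted at each CpG it covers. Islands were rare in the family: by a search of the reference, 6 regions held 1, of which 5 had tested CpGs. The island of Olfr94, in its coding sequence, was at 1.37, 2.70, 3.23 and 2.86%, and that of Olfr1372-ps1 at 19.2, 11.1, 18.1 and 14.8%. That of Olfr1419 was methylated, at 77.4, 75.9, 68.7 and 61.9%, and that of Olfr1127-ps1 differed between KO and WT, as described further on.

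Genes less than 500 kb apart formed 66 clusters, of which 17 held 20 genes or more and 1174 genes between them. Among these 17 the mean level of a cluster, over its Olfr reads and the 4 libraries, ran from 73.9 to 86.9% with a median of 83.2%. The highest of the 17 was the cluster of 287 genes on chromosome 2, at 86.9%, and the lowest the cluster of 29 genes on chromosome 14, at 73.9%. The 17 differed widely in CpGs low in all 4 libraries, from none among 91 genes on chromosome 19 and 0.06% on the large chromosome 2 cluster to 8.04% on chromosome 14 and 10.6% in 23 genes on chromosome 11. Without these CpGs the 17 means ran from 79.0 to 86.9%, and the chromosome 11 cluster of 23 genes moved from 76.4 to 85.0%. Another cluster of 44 genes on chromosome 11 was at 78.9% with 0.15% low CpGs, and stayed at 79.0% without them. The class I cluster, 156 genes in 105 regions, had a median region level of 84.6, 84.5, 83.8 and 84.8%, close to the 84.5, 83.8, 83.5 and 84.7% of the other 1045 regions. Receptor genes were above the sequence between them in 5 of the 17 clusters, with a median difference of -0.99 points, and below the 500 kb on each side in 8. Regions with pseudogenes alone (185) had medians of 84.8, 84.0, 83.8 and 85.0% and those with protein-coding genes alone (898) of 84.4, 83.9, 83.5 and 84.7%.

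**Figure D3:**
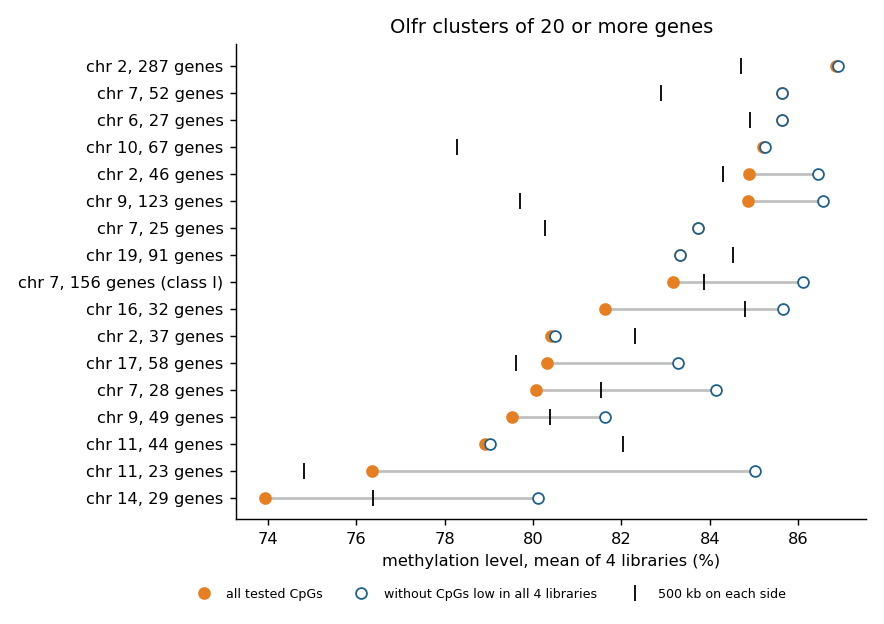
Mean methylation level over the 4 libraries (percent, axis not from 0) of the 17 clusters of 20 or more Olfr genes, from all tested CpGs (filled) and without CpGs at 10% or less in all 4 libraries (open), with the 500 kb on each side as a bar. Clusters with long grey lines hold many such CpGs, and the cluster of 44 genes on chromosome 11 stays near 79.0%.

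At 30 ppm, few Olfr regions differed between KO and WT. By Fisher's exact test on summed reads, two-sided and adjusted by Benjamini-Hochberg over all 235941 regions and windows, 14 regions (1.22%) were called higher in KO by at least 5 points and 3 (0.261%) lower. The background was 7.69% called higher and 0.196% called lower, and windows of like CpG density gave 2.21% and 0.289%. Unadjusted, 101 regions had p under 0.05, 74 of them higher. The median of KO minus WT was 0.43 points over Olfr regions, 1.28 over windows elsewhere and 0.55 over windows of like density. The calls for higher lay in CpG-richer regions, with a median of 8.75 CpGs per kb. They include Olfr1127-ps1 and Olfr222, described further on, and Olfr449, where KO was at 91.0% and WT at 84.4% (adjusted p = 0.0029 by Fisher's exact test). The 3 regions called lower, named after their values were seen, were Olfr465-ps1 (-10.7 points), Olfr481 (-6.86) and Olfr1098 (-5.63). With a minimum of 10 reads, 10 regions were called higher and 0 lower. With z, the normal score of the Fisher p, divided by its robust SD over all regions and windows (1.39), 2 were called, Olfr1127-ps1 and the region from Olfr1410 to Olfr12 (5.91 points higher in KO). At the depth of these libraries, differences of 5, 10 and 20 points simulated in 200 Olfr regions were called in 2.5, 39.5 and 93.5% of cases. Only these 200 of 235941 differed there, so the adjusted cut-off on p was stricter than in these data, where far more were called. A simulated 5 points also lies at the limit for a call. These shares therefore do not give the power of the comparison itself.

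At 3 ppm the calls ran mostly the other way. KO was called higher in 5 regions (0.435%, background 4.16%) and lower in 25 (2.17%, background 0.898%), and windows of like CpG density gave 0.603% and 1.64%. Unadjusted, 180 regions had p under 0.05, of which 156 were lower in KO. The median of KO minus WT was -1.28 points over Olfr regions, -0.15 over windows elsewhere and -1.11 over windows of like density, and 26.3% of Olfr regions were above 0. The Olfr count thus followed windows of like CpG density more closely than windows at large. The 25 lower calls ran from -11.0 points in Olfr1136 to -5.39, and 20 of them lay in regions with no CpG low in all 4 libraries, against 832 of all 1150 regions. At a median of 3.87 CpGs per kb they were poorer in CpGs than the 5 higher calls, which had a median of 9.71. In all 17 large clusters KO was below WT at 3 ppm, with differences from -2.10 to -0.49 points, and in 15 it was above WT at 30 ppm. The clusters share the same libraries and are not replicates. At 3 ppm the sequence between the genes was also lower in KO, as in the cluster of 287 genes on chromosome 2 (86.7 against 88.4%). The exceptions were the clusters of 23 genes on chromosome 11 and 29 genes on chromosome 14. By density, the 40 regions with 10 or more CpGs per kb had medians of 1.99 points at 30 ppm and 0.05 at 3 ppm, and the 542 under 4 per kb had 0.32 and -1.58. KO at 3 ppm was the most deeply read library, at 24.8 reads per Olfr CpG. With all libraries thinned to a mean of 14.5 reads, 13 regions were called, 10 of them lower, and the median difference kept its sign. Divided by the robust SD of z over all regions and windows (1.48), the Fisher z left only Olfr1127-ps1 called at 3 ppm.

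**Figure D4:**
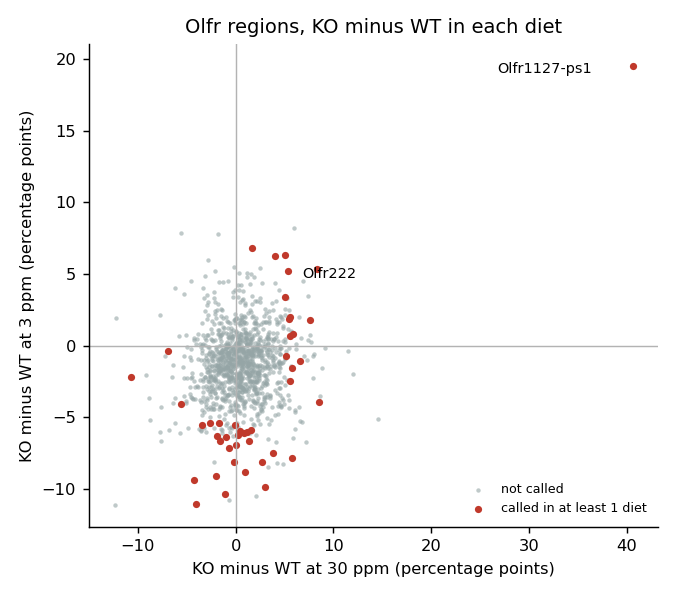
KO minus WT (percentage points) at 30 ppm on the horizontal axis and at 3 ppm on the vertical axis for each of the 1150 Olfr regions; red points were called by Fisher's exact test in at least 1 diet. Most points lie near 0 and Olfr1127-ps1 lies far from all others, at 40.6 and 19.5 points.

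Across both diets, 2 regions were called higher in KO both times and 0 lower both times, against a background of 2.21% and 0.00678%. Olfr222 on chromosome 11 (chr11:59568255-59578235) was at 83.5, 78.2, 84.9 and 79.7% over 96 CpGs, 5.32 and 5.19 points higher in KO (adjusted p = 0.0086 and 0.0015 by Fisher's exact test). Both KO were above both WT. With a minimum of 10 reads for each CpG, the differences were 4.33 and 2.14 points and were not called. Olfr1127-ps1 on chromosome 2 (chr2:87521482-87526373), a receptor pseudogene, was at 87.4, 46.9, 81.5 and 62.0% over 44 CpGs. KO was 40.6 points higher at 30 ppm and 19.5 points higher at 3 ppm, both called by Fisher's exact test. Both KO were far above both WT. The test takes a read as independent at each CpG it covers, and many CpGs of this region lie close together. It therefore counts more readings than there were independent reads. The CpGs that differed lay together, 1533 to 2148 bp upstream of the start of the pseudogene, in a stretch that the authors' DMR lists also hold in both diets (chr2:87525906-87526590). Over its 36 tested CpGs the levels were 85.5% (95% Wilson interval 81.7 to 88.7), 24.5% (21.1 to 28.3), 78.0% (75.0 to 80.8) and 32.1% (27.5 to 37.0). Of the 36, 29 lie in the region and 7 just beyond its 2 kb flank. Both KO were above both WT at 35 of the 36, and at 0 of the 15 CpGs of the region outside the DMR, which were at 90.4, 94.0, 94.3 and 94.5%. The 29 CpGs held 57.0, 68.5, 63.0 and 52.2% of the reads of the region, so its summed level also moves with this share. At these 29, KO minus WT was 60.0 and 41.7 points. The stretch overlaps an exon of Gm13736, a processed pseudogene, and a part of it is shown on the + strand of mm10, with CpGs in capitals.
Olfr1127-ps1, chr2:87526161-87526400, + strand: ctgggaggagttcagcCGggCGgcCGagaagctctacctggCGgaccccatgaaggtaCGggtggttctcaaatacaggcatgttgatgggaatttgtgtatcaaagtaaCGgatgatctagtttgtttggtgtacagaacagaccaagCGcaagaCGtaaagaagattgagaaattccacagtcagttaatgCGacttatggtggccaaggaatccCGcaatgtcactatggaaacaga

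The 10 CpGs of these 240 bases were at 86.6, 31.7, 82.6 and 49.0%. The first 60 bases belong to a CpG island that reads 84.6, 20.9, 73.5 and 23.7%. That island is 97.6% identical over 208 bp to the start of Srp9, a gene for a subunit of the signal recognition particle, on chromosome 1. None of the 25 CpGs of the Srp9 copy is listed in all 4 libraries, so the copies could not be compared. Within the stretch like Srp9 KO minus WT was 63.7 and 49.8 points, and at the other 12 CpGs of the DMR 55.8 and 41.6 points. The DMR as a whole has 1307 other alignments in the reference, the best of them 91.6% identical over 523 bp (76.1% of the DMR). That copy, on another chromosome, held 7 tested CpGs at 76.0, 83.2, 81.5 and 69.4%. The part of misplaced reads in the values of the DMR was not tested. Depth was modest, with as few as 5 reads at a CpG in a library. With a minimum of 10 reads, KO minus WT of the whole region was 15.1 points at 30 ppm, which was still called, and 4.63 points at 3 ppm, which was not. This setting left 13 of the 36 CpGs of the DMR, with differences of 56.5 and 41.1 points.

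**Figure D5:**
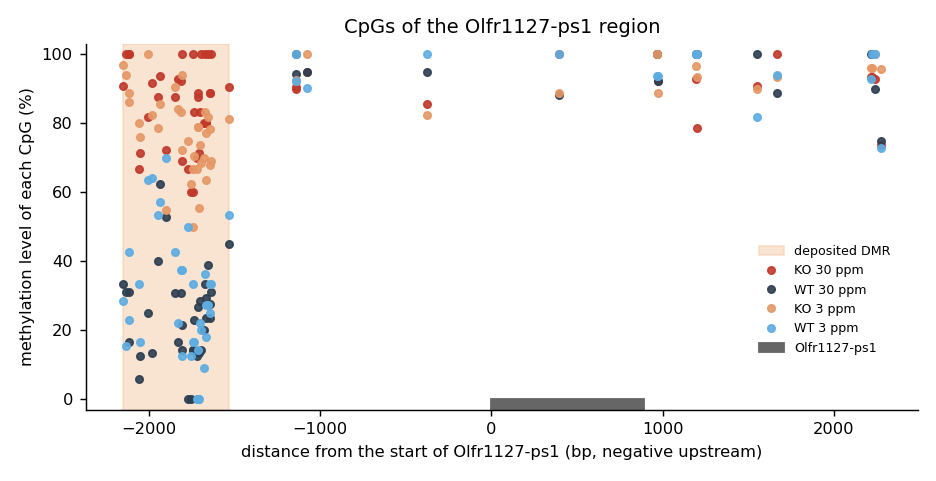
Methylation level (percent) of each tested CpG of the Olfr1127-ps1 region and the adjoining DMR by distance from the start of the pseudogene in bp, with 1 colour for each library. In the shaded DMR both KO libraries lie above both WT libraries at 35 of 36 CpGs, and outside it all libraries are high.

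The authors' lists of differentially methylated regions (DMRs) between libraries placed little in the family. Olfr regions held 2 of 4359 autosomal DMRs with a gain in KO at 30 ppm (0.0459%) and 4 of 4362 at 3 ppm (0.0917%), and 0 of 42 and 0 of 50 with a loss. They hold 0.327% of the tested CpGs and 0.531% of the autosomal sequence. Of the diet DMRs, 129 and 69 in KO and 74 and 58 in WT for gain and loss at 30 ppm, 0 lay in them. Beside Olfr1127-ps1, the region of Olfr56 and Olfr1396 held a gain in both diets, in an intron of Olfr56 that overlaps a UTR of Ifi47, an interferon-inducible GTPase, and the processed pseudogene Gm12188 (chr11:49088247-49088627). Its 13 CpGs were at 67.0, 33.9, 69.6 and 26.1%, and the other 566 CpGs of the region at 86.4, 83.0, 84.9 and 84.9%. A DMR at 3 ppm in a UTR of Olfr539 (chr7:140676170-140676518) was at 49.4, 21.9, 56.5 and 11.3% over 10 CpGs, with both KO above both WT. The last, in a UTR of Olfr658, had 1 CpG with at most 9 reads in any library, too few for a statement. DMRs were called between these same libraries, so these levels are a description.

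Between diets fewer regions were called than between KO and WT, while the median differences were no smaller than the 0.43 points of KO minus WT at 30 ppm. In KO, the median of 30 minus 3 ppm was 0.93 points (0.91 in windows of like density). Of windows of like density 0.376% were called higher and 0.036% lower, and of Olfr regions 0.087% and 0%. Olfr449 was the only region called, and higher, by 6.19 points (adjusted p = 0.016 by Fisher's exact test), with backgrounds of 0.587% higher and 0.158% lower. With z divided by its robust SD it was not called. Unadjusted, 108 regions had p under 0.05. In WT the median was -0.89 points (-0.75 in windows of like density). Windows of like density were called higher in 0.0365% and lower in 0.324%, with backgrounds of 0.157% and 0.666%. Of the Olfr regions, 0 were called higher and 3 (0.261%) lower. Unadjusted, 115 had p under 0.05. These 3 were Olfr1127-ps1 (-15.1 points, adjusted p = 0.00045 by Fisher's exact test), Olfr630 (-13.7, adjusted p = 0.024) and Olfr1434 (-6.64, adjusted p = 0.0075). With the robust SD Olfr1127-ps1 alone was called, and with a minimum of 10 reads it was at -9.69 points and not called. In WT its CpGs within the DMR differed by -7.09 points and those outside by -0.48, each less than the sum, since more of the reads at 30 ppm lay on the DMR. Olfr630, a class I receptor at 61.8, 58.4, 63.7 and 72.1%, held 6 CpGs low in all 4 libraries. Without them it was at 87.5, 88.0, 87.8 and 90.2%, a difference of -2.27 points that was not called. Olfr1434 was at 85.8, 84.4, 84.4 and 91.0%, with WT 3 ppm above the rest. A Wald test on log odds ratios compared KO minus WT at 30 ppm with KO minus WT at 3 ppm. It was passed by 9 regions (0.783%, background 2.04%), all with the larger value at 30 ppm, and 132 had an unadjusted p under 0.05.

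A limma fit on log2 ratios of methylated to unmethylated reads used all 4 libraries, with genotype and diet as terms and 1 residual degree of freedom. Its residual is what genotype and diet leave unexplained, not a spread between embryos of 1 group. The fit also borrows variance from all regions and windows. For genotype, 2 Olfr regions passed as higher in KO (background 1.79%) and 10 as lower (background 0.317%), with a median coefficient of -0.04 over Olfr regions and 0.06 over windows. The highest was Olfr1127-ps1 at 2.19 on the log2 scale (adjusted p = 1.43e-25 by limma), and the other Olfr507 at 0.78 (adjusted p = 0.0041). The smallest adjusted p of any Olfr region by limma was 1.71e-06 with a minimum of 10 reads. With fractions in place of log2 ratios it was 0.00029. Olfr1136 was the lowest, at -1.05 (adjusted p = 1.54e-05), with levels of 85.5, 89.6, 82.9 and 93.9% over 11 CpGs, and both KO below both WT. For diet, Olfr1158 and Olfr241-ps1 passed as higher at 30 ppm (backgrounds 0.0691% higher and 0.0602% lower), with coefficients of 0.80 and 0.86. With a minimum of 10 reads, 0 passed as higher and 1 as lower.

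Genes that serve the receptors, from a list of 21, were read within 1 kb of their starts. It holds the signalling chain, receptor trafficking and transcription factors of receptor choice, and 19 had values. At 30 ppm, 5 were called higher in KO and 0 lower (backgrounds 20.4% and 0.487% of 19924 starts), and at 3 ppm 4 and 0 (24.4% and 0.893%). Gng13, the G protein gamma subunit of the sensory neurons, was at 36.2, 10.7, 38.1 and 12.9%, with both KO above both WT (adjusted p = 0.013 and 0.0025 by Fisher's exact test). Ano2, the chloride channel that amplifies the odorant response, was at 66.7, 45.0, 70.7 and 53.0% (adjusted p = 0.026 and 0.020). Slc24a4, the exchanger that ends the response, was at 12.5, 4.17, 8.27 and 1.90% (adjusted p = 0.0055 and 0.00070). Gnal, the olfactory G protein alpha subunit, and Rtp2, which helps to carry receptors to the membrane, were called at 30 ppm alone, by 14.3 and 8.33 points. Cnga4, a subunit of the transduction channel, was called at 3 ppm alone, by 12.9 points. Adcy3, the cyclase of the cascade, was at 42.4, 49.3, 44.6 and 43.9% and Omp, the marker of mature sensory neurons, at 90.8, 86.0, 90.2 and 89.5%, neither of them called. Lhx2, Ebf1, Ebf2 and Emx2, transcription factors also used in brain development, were at most 6.42% in any library, and none was called. Ebf4 was higher, at 17.6, 12.4, 17.3 and 11.1%, and was not called. Nor were Atf5, at 7.53, 10.7, 14.4 and 10.6%, and Kdm1a, at 16.4, 12.6, 15.5 and 18.7%. Between diets 0 of the 19 were called in KO (backgrounds 0.959% higher and 0.793% lower) and 0 in WT (0.542% and 0.427%). The distance mattered for some of these calls. Within 2.5 kb of the start, KO minus WT of Gng13 was 8.42 and 5.96 points, and neither was called (adjusted p = 0.17 and 0.25 by Fisher's exact test). Ano2 was called at 30 ppm (17.5 points) but not at 3 ppm (0.48 points, adjusted p = 0.97 by Fisher's exact test). Gnal was called in both diets, by 17.6 and 6.48 points. So was Ebf4, by 12.4 and 15.1 points, while Ric8b and Kdm1a were called at 30 ppm alone, by 11.9 and 8.67 points, all higher in KO. Between diets in WT, Cnga4 was then called higher at 30 ppm by 6.89 points (adjusted p = 0.018 by Fisher's exact test) and Ano2 was called lower, at -14.2 points (adjusted p = 0.045).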

How the data were processed

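WGBS libraries of 4 male E11.5 brains, 1 for each of KO and WT at 30 ppm and 3 ppm FA, were grouped by the labels. Per the labels and the study's methods, the authors trimmed reads with Trim Galore 0.6.10, aligned them with Bismark 0.23.1 to GRCm38.p6 (mm10), removed duplicates and merged both strands at CpGs. In the deposited tables stand the methylated fraction of each CpG as the authors computed it and the count of reads over it, not normalised by the authors. The deposited DMR lists were used for their positions alone. Their columns of the authors' own comparisons (mean levels, differences and test statistics) were neither used nor printed. A lambda spike-in was not used here. At mitochondrial CpGs, 0.91 to 0.94% of reads were methylated.

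Fraction times count missed a whole number by at most 4.37e-11 and was rounded to methylated reads. CpGs with 5 or more reads in all 4 libraries were kept, 14907672 on the autosomes and 48690 of them in Olfr regions. Reads were summed over each region and over each 10 kb window elsewhere with at least 3 such CpGs. Precision was set by a median of 517 to 844 reads for each region. The 95% Wilson intervals cover counting error only, since each group holds 1 library. Regions were called by Fisher's exact test where the adjusted p was under 0.05 and the libraries were 5 points or more apart. The test was two-sided, with Benjamini-Hochberg adjustment over all regions and windows, and its function was checked against SciPy 1.17.1 on simulated counts. Like the intervals, the test takes a read as independent at each CpG it covers. The Wald test of the difference of log odds ratios added 0.5 to each count, and the limma 3.58.1 fit (R 4.3.3) added 1. The study's DSS was not available here. Both scripts were tested on simulated data. CpG islands were searched for in the reference sequence, which gave 15611, and copies of stretches were found with blastn 2.17.0. Every autosomal CpG listed in all 4 tables lay on a CG of the reference.

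Regions were named by rule: the 3 nearest the median WT level, up to 8 lowest with 10 or more CpGs, those called in both diets or in a diet comparison, those with a DMR in both diets, the leading Wald results and 9 fixed receptors, of which 1 is not reported here. Other regions were named after their values were seen. The members, gene lists and rules were chosen with earlier results of these data known. Alternatives varied the read minimum, the distance from starts (2.5 kb in place of 1 kb), thinning, flanks, window length, gene set, islands, strain-like CpGs, coverage and the thresholds, and 1 alternative, leaving out CpGs low in all 4 libraries, was chosen after seeing the data.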

Additional observations from a re-analysis of the deposited data

Results flagged for a closer look

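In 9 Olfr regions KO minus WT was larger at 30 ppm than at 3 ppm by a Wald test, with p adjusted by Benjamini-Hochberg over all regions and windows. The background was 2.04% of regions and windows, against 0.783% here, and with 1 library in each group the test compares libraries and not conditions. Counting error is the only spread it holds, and with gene bodies alone or 5 kb flanks 14 and 19 regions passed.

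In Olfr1127-ps1, KO minus WT at 30 ppm less that at 3 ppm was 21.1 points, with KO above WT in both diets (40.6 and 19.5 points). The KO libraries were at 87.4 and 81.5% and the WT libraries at 46.9 and 62.0%. These sums also move with the share of reads on the DMR, which was 68.5% in WT at 30 ppm and 52.2% in WT at 3 ppm. At the 29 CpGs of the region within the DMR, 30 minus 3 ppm was 11.2 points in KO and -7.09 in WT. In the region of Olfr56 and Olfr1396 the difference was 3.45 points (3.89 and 0.43 points) over 579 CpGs, and KO was above WT in both diets. The DMR in that region ran the other way, with 33.2 points at 30 ppm and 43.5 at 3 ppm. In Olfr449 it was 7.66 points (6.56 and -1.10 points), with KO at 30 ppm, at 91.0%, above the other libraries at 84.4 to 85.9%. In the region from Olfr637-ps1 to Olfr646, which holds 10 class I genes and 624 CpGs, it was 2.85 points (1.03 and -1.82 points).

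KO was above WT at 30 ppm and below it at 3 ppm in 7 of the 9 regions, Olfr449 and the class I region among them. In the other 5 of the 7 the difference was 13.6 points in Olfr696-ps1, 12.2 points in Olfr514, 9.03 points in the region of Olfr1077-ps1 and Olfr1078-ps1, 8.03 points in Olfr1434 and 7.35 points in Olfr1501. In Olfr514 the levels were 92.1, 85.3, 87.5 and 92.8% over 21 CpGs, in the order KO 30 ppm, WT 30 ppm, KO 3 ppm and WT 3 ppm. In Olfr696-ps1 they were 88.9, 83.1, 82.4 and 90.2% over 30 CpGs. The lowest of the 4 libraries was WT 30 ppm in Olfr514 and KO 3 ppm in Olfr696-ps1.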

How the results depend on the processing

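Of 236 alternatives for the results that answer a comparison, 206 kept direction and side of the threshold, or stayed within 1.5 times a count, and 30 moved. All 44 alternatives for levels, 56 for gaps and 44 for median differences were among the 206, so what moved were counts of calls. The gap ran from -2.08 to -1.17 points over libraries and settings. No analysis paired by litter was possible, since no pair of embryos shared a litter number. The limma fit, with diet as a term, set KO against WT within diet with 1 residual degree of freedom.

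KO minus WT at 30 ppm called 17 regions, and 10 with a minimum of 10 reads, 2 at a difference of at least 10 points, 2 with z divided by its robust SD, 11 with windows of 5 kb and 30 with windows of 20 kb. KO minus WT at 3 ppm called 30, and 13 with a minimum of 10 reads, 13 thinned to an equal mean depth, 15 with 5 kb flanks, 3 at 10 points and 1 with the robust SD. The diet comparison in KO called 1, and 2 with a minimum of 3 reads, 3 with 5 kb flanks, 2 without CpG islands, 0 at 10 points, 0 with the robust SD and 2 with windows of 20 kb. That in WT called 3, and 5 with a minimum of 3 reads, 5 thinned, 6 without strain-like CpGs, 1 with gene bodies alone, 5 with no minimum difference, 1 with the robust SD and 6 with windows of 20 kb. The Wald test passed 9 regions, and 14 with gene bodies alone and 19 with 5 kb flanks. In limma, 12 regions passed for genotype and 6 with a minimum of 10 reads, and for diet 2 passed, 1 with fractions in place of log2 ratios and 1 at 10 reads or more, which was lower at 30 ppm whereas the 2 were higher. Of the genes that serve the receptors, 0 were called between diets in WT within 1 kb of the start, and 1 higher and 1 lower within 2.5 kb. The cause of these moves was not tested. The window length changes the number of tests over which p is adjusted.

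Named regions kept their call in 55 of 67 alternatives. These varied only the read minimum, thinning, strain-like CpGs, CpGs of very high coverage and CpGs low in all 4 libraries. The robust SD, the 10-point limit, flanks and window lengths were not among the 67. With the robust SD, Olfr1127-ps1 alone of the regions scored in this way stayed called. Olfr292 at 3 ppm, called at -10.3 points, was not called with a minimum of 3 reads (-9.49), with 10 reads (-10.6), thinned (-10.9) or without strain-like CpGs (-7.10). With 10 reads, Olfr1127-ps1 in WT between diets (-9.69) was not called. Thinned, neither Olfr222 at 3 ppm (3.61) nor Olfr630 in WT (-13.6) was.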
